A study of Homo sapiens with 28 samples.

Results

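The expression of 10 direct transcriptional targets of the tumor suppressor p53 (CDKN1A, MDM2, BBC3, BAX, FAS, TNFRSF10B, TP53INP1, SESN1, GDF15 and ZMAT3) was described in human colorectal cancer cells in which the transcription factor TWIST1 had been targeted. The 10 genes were chosen by name, as well-known targets of p53, and were matched by gene symbol among the 62703 genes of the count tables. They and the further gene lists below were chosen with earlier results of these data known. All 10 were present and all 10 passed the filter on low counts in both cell lines. Polyadenylated RNA was sequenced from MDST8, a cell line of the mesenchymal CMS4 subtype of colorectal cancer, and from LoVo, a colorectal cell line outside that subtype. The MDST8 groups were WT cells and 5 TWIST1 KO clones named 1.1, 2.2, 3.2, 3.5 and 3.6, with 3 libraries each. The KO clones were made by electroporation of Cas9 with guide RNAs against TWIST1 and were expanded from single cells, so that each clone is 1 line and a difference from WT can belong to the clone as well as to TWIST1. The LoVo groups were cells labelled shRNA control and cells labelled TWIST1 shRNA, with 3 libraries each, the latter transduced with a lentiviral hairpin. The labels do not say which hairpin, and a figure legend of the paper names it shRNA-1. That legend calls the reference LoVo cells wild type, whereas the labels call them shRNA control. Whether the reference cells were transduced is therefore not settled. TWIST1 ChIP-seq of WT cells gave 1 peak list per cell line.

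p53 is a transcription factor that is held at a low level by the ubiquitin ligase MDM2 and accumulates after DNA damage and other stress. It binds a response element made of paired decamers and switches on genes of cell cycle arrest, apoptosis, DNA repair and metabolism, and MDM2 is itself a target, which closes a negative feedback loop. In colorectal tumors the pathway is often lost by mutation. Whether p53 output differed between the KO clones or between the LoVo groups was read here from the mRNA of its targets.

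Matches to the p53 response element near the gene start were sought at all 10 genes, and the sequences of 6 matches are shown. The genome (hg38) was searched within 3000 bp on either side of the 5′ end of each gene for the 20-base p53 response element without a spacer, with the C and the G of both cores kept and at most 2 other mismatches to the consensus. Such a match was found at 6 of the 10 genes (BAX, CDKN1A, GDF15, MDM2, TNFRSF10B and ZMAT3), compared with 4.61% of 20044 protein-coding genes. The 5′ end was taken as the outermost annotated start over all transcripts of a gene. The starts of single transcripts may therefore lie outside the window. BBC3 had a match with 3 mismatches, a level met by 25.5% of all protein-coding genes. The sequences of 6 matches follow, with the BBC3 match included and the TNFRSF10B match left out. They are read 5′ to 3′ on the strand of the gene, with the core of each decamer in capitals.
CDKN1A: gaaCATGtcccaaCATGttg
MDM2: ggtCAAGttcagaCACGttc
BBC3: ctgCAAGtcctgaCTTGtcc
BAX: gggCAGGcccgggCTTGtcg
GDF15: agaCCTGcccggaCATGtcc
ZMAT3: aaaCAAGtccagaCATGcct

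The CDKN1A match lay across the annotated 5′ end of the gene (chr6:36676449-36676468, plus strand). The MDM2 match was intronic (chr12:68808923-68808942, plus strand) and centred 756 bp into the gene, and the BBC3 match was also intronic (chr19:47231320-47231339, minus strand). The BAX match fell in an exon of at least 1 transcript (chr19:48955213-48955232, plus strand). The GDF15 match had 1 mismatch and was upstream of the gene (chr19:18373947-18373966, plus strand), and the ZMAT3 match had 0 mismatches and was intronic, 2018 bp into the gene (chr3:179070188-179070207, minus strand). A match is a likeness of letters only, and the absence of one for FAS, SESN1 and TP53INP1 says no more than that these letters are not in the window searched.

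Library totals ran from 17252883 to 22217009 counts in MDST8 and from 16567606 to 20889529 in LoVo. TWIST1 itself was still counted in every KO clone, at 46.2 ± 6.08 CPM (counts scaled by library size and TMM factor; mean ± SD, n = 3) in WT and at 29.4 ± 1.07 to 53.6 ± 3.498 in clones 2.2 and 3.2, the lowest and the highest, and only clone 2.2 passed the thresholds (log2 fold change -0.65 ± 0.07, SE; edgeR, adjusted p = 2.37e-09). A gene count does not check an edit that leaves the transcript in place. The paper checked the MDST8 knockout by Sanger sequencing of the guide site and by Western blot. It checked the LoVo knockdown by qRT-PCR and by Western blot. In LoVo the targeted gene went against the labels, with 0, 0 and 0 reads under the shRNA control label and 73, 89 and 93 under the TWIST1 shRNA label, and all LoVo directions below follow the labels as given. Library 1 labelled TWIST1 shRNA stood apart from libraries 2 and 3, with a chi-square per degree of freedom of 22.95 and 35.3 against them, compared with 4.69 between those 2, and with 10.9% of its counts from mitochondrial genes, compared with 3.49 to 6.24% in the other LoVo libraries. Of 10 epithelial markers, 8 failed the filter in MDST8, where EPCAM was at 0.034 CPM and CDH1 and CDX2 at 0 in WT. The other 2, the keratin genes KRT8 and KRT18, were at 11.3 ± 1.19 and 61.4 ± 2.19 CPM in WT (mean ± SD, n = 3), and were both called higher in clone 2.2 (0.72 and 0.69), KRT18 in clone 3.5 (0.94) and KRT8 in clone 3.6 (0.68). The summed epithelial markers were at 70.9 to 76.9 CPM in WT, 116 to 123 CPM in clone 2.2 and 129 to 136 CPM in clone 3.5, the clones with the highest CDKN1A and MDM2, and at 79.3 to 84.1, 77.6 to 82.3 and 64.5 to 74.3 CPM in clones 1.1, 3.2 and 3.6. Summed mesenchymal markers were at 12025 to 12583 CPM in WT and highest in clone 3.5, at 18951 to 20069 CPM. In LoVo 8 of the 10 epithelial markers were lower in the libraries labelled TWIST1 shRNA, with a summed level of 4587 to 5173 CPM compared with 7954 to 8179.6 CPM. Of 7 mesenchymal markers tested in LoVo, 5 were called lower and 2 higher, beside 26.1% and 26.6% of all genes, with a median log2 fold change of -1.10. The summed level of the list was 213 to 219.8 CPM under the shRNA control label and 398 to 447 CPM under the TWIST1 shRNA label. COL6A2, a collagen gene and 1 of the 2 called higher, had 0, 0 and 0 reads under the first label and 5233, 5091 and 6052 under the second. Blood and endothelial markers summed to at most 1.52 CPM in any library. The part of these differences in the results below was not tested.

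Against WT, few of the 10 targets passed the thresholds in any clone, in numbers close to the shares of all genes. A difference that was not called can still have an adjusted p below 0.05, as for MDM2 in clone 3.5 (log2 fold change 0.47; edgeR, adjusted p = 1.87e-12). Called or not, 8 of the 10 had a log2 fold change above 0 in clone 1.1 and 9 in clone 2.2. The number was 7 in clone 3.2, 10 in clone 3.5 and 3 in clone 3.6. A gene was called when its log2 fold change exceeded 0.58 in either direction with an adjusted p below 0.05 in edgeR's quasi-likelihood test over all 13706 MDST8 genes tested. In clone 1.1, 1 of the 10 was called higher and 0 lower, beside 12% and 7.49% of all genes. In clone 2.2, 2 were higher and 0 lower, beside 8.05% and 6.64% of all genes. Clone 3.2 had 2 higher and 1 lower, beside 10.9% and 6.09%. Clone 3.5 had 2 higher and 0 lower, beside 11.2% and 7.25%. Clone 3.6 had 2 higher and 0 lower, beside 15.3% and 11.7%. With 10 genes, 1 or 2 called in a direction is close to these background shares. The median log2 fold change of the 10 was 0.22 in clone 1.1, 0.42 in clone 2.2, 0.13 in clone 3.2, 0.42 in clone 3.5 and -0.05 in clone 3.6, while the median of all genes lay between -0.01 and 0.00 in each. The 5 comparisons share the 3 WT libraries and are not independent of each other. Genes are described below as overlapping or not overlapping the WT or control libraries. The share of all genes without overlap was not counted. Nothing in the labels says that the 3 libraries of a group came from separate cultures, so the p-values measure the spread between these libraries, which may be technical. In bulk RNA, fewer cells expressing a gene and less RNA per cell cannot be told apart.

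**Figure D1:**
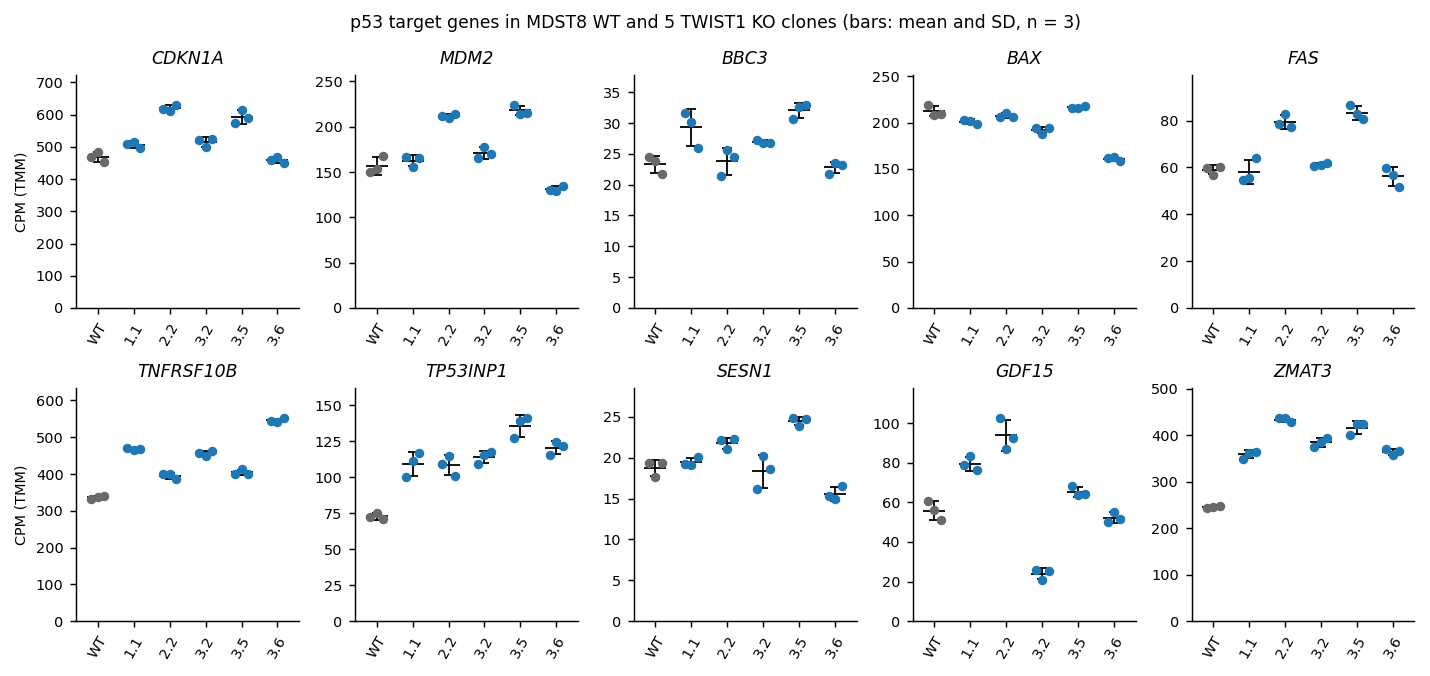
TMM-normalized CPM (vertical axes, from 0) of the 10 p53 targets in each MDST8 library, with WT in gray and the 5 TWIST1 KO clones in blue; horizontal and vertical bars give the mean and SD of 3 libraries. TP53INP1, TNFRSF10B and ZMAT3 lie above every WT library in all 15 clone libraries, and GDF15 is lowest in clone 3.2. The share of all genes that lie above WT in this way was not counted.

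Clones also differed from each other. An F test over the 5 clones, with an adjusted p below 0.05 and a difference of more than 0.58 on the log2 scale between the highest and the lowest clone mean, called 3 of the 10 targets (MDM2, SESN1 and GDF15), beside 32% of all genes tested, so the share of targets that differed among clones was near that of all genes. Clones 2.2 and 3.5 had the highest mean levels of CDKN1A, MDM2, FAS, SESN1 and ZMAT3, and clone 3.6 had the lowest of CDKN1A, MDM2, BBC3, BAX, FAS and SESN1 but the highest of TNFRSF10B. The members are described below by their role.

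MDM2, the ubiquitin ligase that ends the p53 response, had 149.5, 153 and 168 CPM in the WT libraries. It had 212, 209.6 and 214 CPM in clone 2.2 and 224, 214 and 216 CPM in clone 3.5, all above WT, and 130.4, 129 and 135 CPM in clone 3.6, all below WT. Clones 1.1 and 3.2 overlapped WT, with mean levels of 162 ± 6.06 and 171 ± 6.37 CPM (SD, n = 3). None of the 5 differences from WT reached the fold threshold (log2 fold change 0.44 ± 0.04 in clone 2.2, 0.47 ± 0.04 in clone 3.5 and -0.25 ± 0.04 in clone 3.6), but the clones differed by up to 0.73 on the log2 scale (edgeR F test, adjusted p = 1.59e-17). Of the exon bases of MDM2 (chr12:68808177-68845544), 14.7% are shared with other annotated genes, the largest share among the 10, and the reads were counted without regard to strand.

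CDKN1A encodes p21, the cyclin-dependent kinase inhibitor through which p53 arrests the cell cycle. Its levels were 468, 484 and 454 CPM in WT, 618, 611 and 629.97 CPM in clone 2.2 and 573, 615 and 589 CPM in clone 3.5. Clones 1.1, 3.2 and 3.6 had mean levels of 507 ± 9.82, 515 ± 14.2 and 459 ± 9.75 CPM (SD, n = 3). Clones 1.1, 2.2, 3.2 and 3.5 lay above WT in every library and clone 3.6 overlapped it, but the largest difference, in clone 2.2, was 0.40 ± 0.03 on the log2 scale (edgeR, adjusted p = 3.37e-12), under the fold threshold.

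Among 12 cell cycle genes known to be repressed through p21 and the DREAM complex, the calls against WT were all downward. The list was chosen with earlier results of these data known, so its direction is a description only. Of the 12, 5 fell in clone 1.1, 4 in clone 2.2, 2 in clone 3.2, 7 in clone 3.5 and 7 in clone 3.6. None rose in any clone, beside 6.09 to 11.7% of all genes called lower. The median log2 fold change of the list was -0.53, -0.51, -0.37, -0.66 and -0.61 in that order. MYBL2, a transcription factor of the cell cycle, was lower in every clone, by log2 fold changes from -1.86 in clone 3.5 to -0.89 in clone 3.2. CCNA2, which encodes cyclin A, had 111, 108 and 121 CPM in WT and 39.2, 41.7 and 37.5 CPM in clone 3.5 (log2 fold change -1.52 ± 0.05), and fell by 1.31 on the log2 scale in clone 2.2, by 0.93 in clone 3.6 and by 0.69 in clone 1.1, but not past the threshold in clone 3.2 (-0.42). E2F1, another activator of S phase genes, fell in all 5 clones, by log2 fold changes from -1.05 in clone 3.5 to -0.59 in clone 2.2. Clones 3.5 and 3.6 had the same number of genes of the list lower, with CDKN1A above WT in clone 3.5 and overlapping it in clone 3.6. Whether these falls go with CDKN1A was not tested.

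Among the apoptotic targets, BBC3 encodes PUMA, a BH3-only protein that triggers release of cytochrome c, and BAX encodes the pore-forming effector. BBC3 was low in MDST8, at 24.4, 23.8 and 21.8 CPM in WT and 30.6, 32.6 and 32.9 CPM in clone 3.5, the highest clone, where the log2 fold change was 0.46 ± 0.07. BBC3 lay above every WT library in clones 1.1, 3.2 and 3.5 and overlapped WT in clones 2.2 and 3.6. BAX had 219, 209 and 209.6 CPM in WT and 161, 162 and 159 CPM in clone 3.6, which was below WT without overlap but under the fold threshold (log2 fold change -0.40 ± 0.03; edgeR, adjusted p = 4.26e-13). BAX also lay below WT in every library of clones 1.1 and 3.2, with log2 fold changes of -0.08 and -0.15. Clones 2.2 and 3.5 overlapped WT, and no clone had BAX above the WT range.

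FAS and TNFRSF10B encode death receptors, for the ligands FASL and TRAIL. FAS had 59.8, 56.7 and 60.3 CPM in WT, 78.5, 82.9 and 77.1 CPM in clone 2.2 and 86.6, 82.7 and 80.5 CPM in clone 3.5, with log2 fold changes of 0.43 ± 0.05 and 0.50 ± 0.05, under the fold threshold. In clones 1.1, 3.2 and 3.6 it was at mean levels of 58.1 ± 5.23, 61.1 ± 0.814 and 56.1 ± 4.14 CPM (SD, n = 3). The log2 fold changes there were -0.02, 0.05 and -0.07. Clone 3.2 lay just above WT in every library, and clones 1.1 and 3.6 overlapped it. The distance between the highest and the lowest clone was 0.57, and passed 0.58 without replicate C of clone 1.1 (0.594), replicate C of clone 3.5 (0.601) or replicate A of clone 3.6 (0.617). ACTA2 runs on the other strand and shares exon bases with FAS, and reads within those bases cannot be assigned to 1 of the genes.

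TNFRSF10B was above WT in every clone library, at 333, 337 and 339 CPM in WT, 399, 399.6 and 386 CPM in clone 2.2, the lowest clone, and 544, 543 and 552 CPM in clone 3.6, the highest. Clones 1.1, 3.2 and 3.5 had mean levels of 468 ± 2.75, 456 ± 6.92 and 404 ± 7.58 CPM (SD, n = 3). TNFRSF10B rose past the threshold only in clone 3.6 (log2 fold change 0.70 ± 0.03; edgeR, adjusted p = 1.72e-20), and was at 0.48, 0.23, 0.44 and 0.27 in clones 1.1, 2.2, 3.2 and 3.5. TNFRSF10A, the other TRAIL receptor with a death domain and also a p53 target, fell in clones 1.1, 3.2, 3.5 and 3.6, from 76, 89 and 102 reads in WT to 20, 23 and 19 in clone 1.1 (log2 fold change -2.12 ± 0.21).

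TP53INP1, a stress-induced nuclear protein that acts in p53-dependent apoptosis and autophagy, was the target called most often. It had 72.2, 75.4 and 71.1 CPM in WT. In the clones it had 99.95, 112 and 117 (1.1), 109, 115 and 101 (2.2), 109, 115 and 118 (3.2), 127, 139 and 141 (3.5) and 116, 124 and 122 CPM (3.6). All 15 clone libraries lay above the 3 WT libraries. The log2 fold changes were 0.59 ± 0.05, 0.57 ± 0.05, 0.65 ± 0.05, 0.90 ± 0.05 and 0.73 ± 0.05 in the same order, of which the second missed the fold threshold and the first passed it by less than 0.01. Without replicate B or C of clone 1.1, or without replicate C of WT, the value in clone 1.1 was 0.57, 0.54 and 0.58, and it was no longer called. The value in clone 2.2 passed the threshold without replicate C of that clone (0.62), without replicate B of WT (0.61), with limma on log2(count + 1) (0.587) and in a fit of only the groups compared (0.583). The clones differed from each other by at most 0.32.

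ZMAT3, a p53-induced RNA-binding zinc finger protein, was also above WT in every clone library. It had 245, 245 and 249 CPM in WT. In the clones it had 349.7, 363 and 365 (1.1), 437, 437 and 428 (2.2), 374, 386 and 394 (3.2), 401, 424 and 425 (3.5) and 370.3, 357 and 365 CPM (3.6). The lowest clone library was 1.41-fold above the highest WT library. ZMAT3 rose in clones 2.2, 3.2 and 3.5, by 0.82 ± 0.03, 0.64 ± 0.03 and 0.76 ± 0.03 on the log2 scale (edgeR, adjusted p = 8.25e-21, 3.89e-18 and 4.98e-20), and was at 0.55 and 0.57 in clones 1.1 and 3.6, just under the fold threshold. The value in clone 3.6 passed it without replicate C of WT (0.585), without replicate B of that clone (0.592) and with limma on log2(count + 1) (0.691). Its spread among clones was the smallest of the 10, at 0.27. No exon base of ZMAT3 is shared with another annotated gene.

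SESN1, a sestrin that restrains mTORC1 and limits oxidative stress, had 19.4, 17.6 and 19.3 CPM in WT, 24.8, 23.9 and 24.7 CPM in clone 3.5 and 15.3, 14.9 and 16.5 CPM in clone 3.6, and neither of these clones overlapped WT. None of the differences from WT was called (log2 fold change 0.38 ± 0.08 in clone 3.5 and -0.27 ± 0.08 in clone 3.6), whereas clones 3.5 and 3.6 lay 0.65 apart (edgeR F test, adjusted p = 3.43e-08). That distance was 0.46 with limma on log2(count + 1) and 0.577 with limma on log2(RPM + 1), both under the threshold.

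GDF15, a secreted stress cytokine of the TGF-β family, varied most among the clones. It had 60.4, 55.9 and 51.04 CPM in WT. In the clones it had 78.7, 83.2 and 76.5 (1.1), 102, 86.8 and 92.4 (2.2), 25.7, 21.04 and 25.6 (3.2), 68.2, 63.5 and 64.3 (3.5) and 50.02, 55.2 and 51.6 CPM (3.6). Clone 2.2 was the highest and clone 3.2 the lowest, and clone 3.6 overlapped WT. GDF15 rose in clone 2.2 (log2 fold change 0.75 ± 0.06; edgeR, adjusted p = 2.35e-12) and fell in clone 3.2 (log2 fold change -1.22 ± 0.07; edgeR, adjusted p = 2.42e-16). It was the only member of the 10 called in both directions. The distance between the highest and the lowest clone was 1.97 on the log2 scale (edgeR F test, adjusted p = 5.50e-22), beside a median of 0.44 over all genes.

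**Figure D2:**
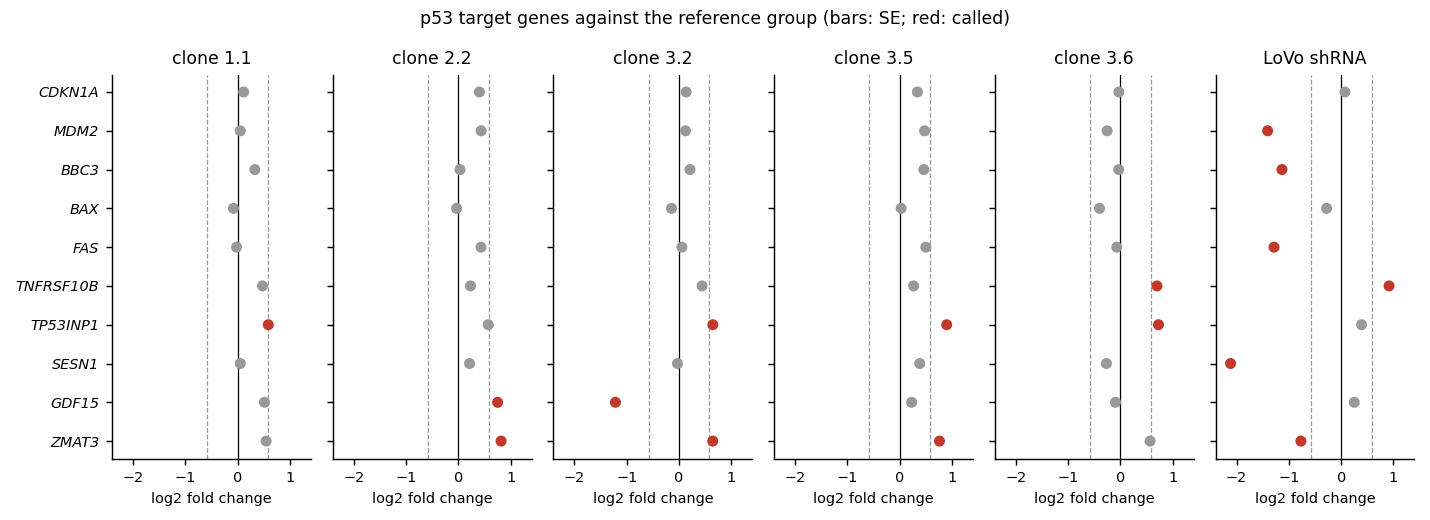
Log2 fold change (horizontal axes) of the 10 p53 targets in each KO clone against WT and in LoVo libraries labelled TWIST1 shRNA against those labelled shRNA control; bars give the SE, dashed lines the threshold of 0.58, and red points the genes called. TP53INP1 and ZMAT3 lie to the right of 0 in each clone, and in LoVo 5 genes are called to the left and TNFRSF10B to the right.

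Some regulators of p53 rose in clones 1.1, 3.2, 3.5 and 3.6. MDM4, which blocks the transactivation domain of p53, and PPM1D, the phosphatase that dampens the damage response, were called in no clone, with log2 fold changes from -0.12 to 0.26 and from -0.17 to 0.17. Of 12 regulators tested, 3 rose in clone 1.1, 0 in clone 2.2, 3 in clone 3.2, 1 in clone 3.5 and 3 in clone 3.6, beside 8.05 to 15.3% of all genes called higher in a clone. None of the 12 was called lower. HIPK2, a kinase of p53, rose in clones 1.1, 3.2 and 3.6 (0.91, 0.87 and 0.92), as did the p53 homolog TP73 (0.87, 0.78 and 0.91), and ATM, the kinase that senses double-strand breaks, rose in clone 3.5 (0.60). At most 2 called regulators per clone were named by rule. CDKN2A, left out by that rule, was also called higher in clones 1.1 and 3.2 (0.76 and 0.64). Its values in the other clones are not given here.

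Of a further list of 39 direct p53 targets, 37 were tested in MDST8. Few of them passed the thresholds, with the largest number in clone 3.5. In clone 1.1, 2 rose and 1 fell, in clone 2.2, 2 rose and 1 fell, in clone 3.2, 1 rose and 1 fell, in clone 3.5, 7 rose and 1 fell, and in clone 3.6, 1 rose and 1 fell. The shares of all genes are those given above for each clone, 8.05 to 15.3% higher and 6.09 to 11.7% lower. Clone 3.5 had the highest median log2 fold change of the list (0.33), compared with 0.01, 0.12, 0.04 and 0.15 in clones 1.1, 2.2, 3.2 and 3.6. In clone 3.6 the number called was 1 without replicate B of WT, and 6 with limma on log2(count + 1), which differs in both the test and the normalization. BTG2, an antiproliferative gene, had 13.2, 12.4 and 10.4 CPM in WT and rose in clones 1.1, 2.2, 3.2 and 3.5, to 35.6, 33.2 and 31.7 CPM in clone 2.2 and 35.2, 35.8 and 34.8 CPM in clone 3.5 (log2 fold change 1.48 ± 0.09 and 1.56 ± 0.09). TRIM22, an interferon- and p53-inducible gene, rose in clones 2.2, 3.5 and 3.6 (0.86, 1.01 and 0.60), and TIGAR, a regulator of glycolysis, rose in clone 1.1 (0.74). SPATA18, which acts in mitochondrial quality control, stood apart in clone 2.2, with 9, 6 and 10 reads compared with 238, 232 and 252 in WT (log2 fold change -4.85 ± 0.17). Of the 37 genes, 12 differed among the clones, beside 32% of all genes, so the share was that of the background.

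Among 16 tested partners of the death receptors and of the BCL2 family, 3 rose and 1 fell in clone 1.1, 3 rose and 0 fell in clone 2.2, 3 rose and 1 fell in clone 3.2, 2 rose and 1 fell in clone 3.5 and 3 rose and 2 fell in clone 3.6, beside 8.05 to 15.3% of all genes called higher and 6.09 to 11.7% called lower. The genes that rose encode BH3-only proteins. BMF had 9.68, 8.46 and 8.26 CPM in WT and 51.7, 54.9 and 59.1 CPM in clone 3.6, and its log2 fold changes ran from 1.56 in clone 2.2 to 2.65 in clone 3.6. BIK rose in clones 1.1, 2.2, 3.2 and 3.6 (1.68, 0.85, 1.91 and 1.57) from low levels of 30, 32 and 39 reads in WT, and BCL2L11, which encodes BIM, rose in each clone, by 0.69 in clone 2.2 to 1.61 in clone 1.1. CASP10, an initiator caspase, fell in clones 1.1, 3.2 and 3.6 (-0.92, -1.18 and -1.56) from 46, 46 and 46 reads in WT. BCL2, the antiapoptotic founder of the family, fell in clones 3.5 and 3.6 (-0.64 and -0.69).

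In LoVo more of the 10 targets were called than in any clone, as were more of all genes. Most of the calls among the 10 were downward under the TWIST1 shRNA label. Of the 10, 5 were lower and 1 was higher by the same thresholds over 14270 genes tested, beside 26.1% of all genes called lower and 26.6% called higher. A majority of genes was called in this comparison, and a call in it sets a gene apart less than in MDST8. The median log2 fold change of the 10 was -0.52, compared with 0.01 over all genes. A count of 6 was obtained when any 1 library was left out, including the one that stood apart.

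**Figure D3:**
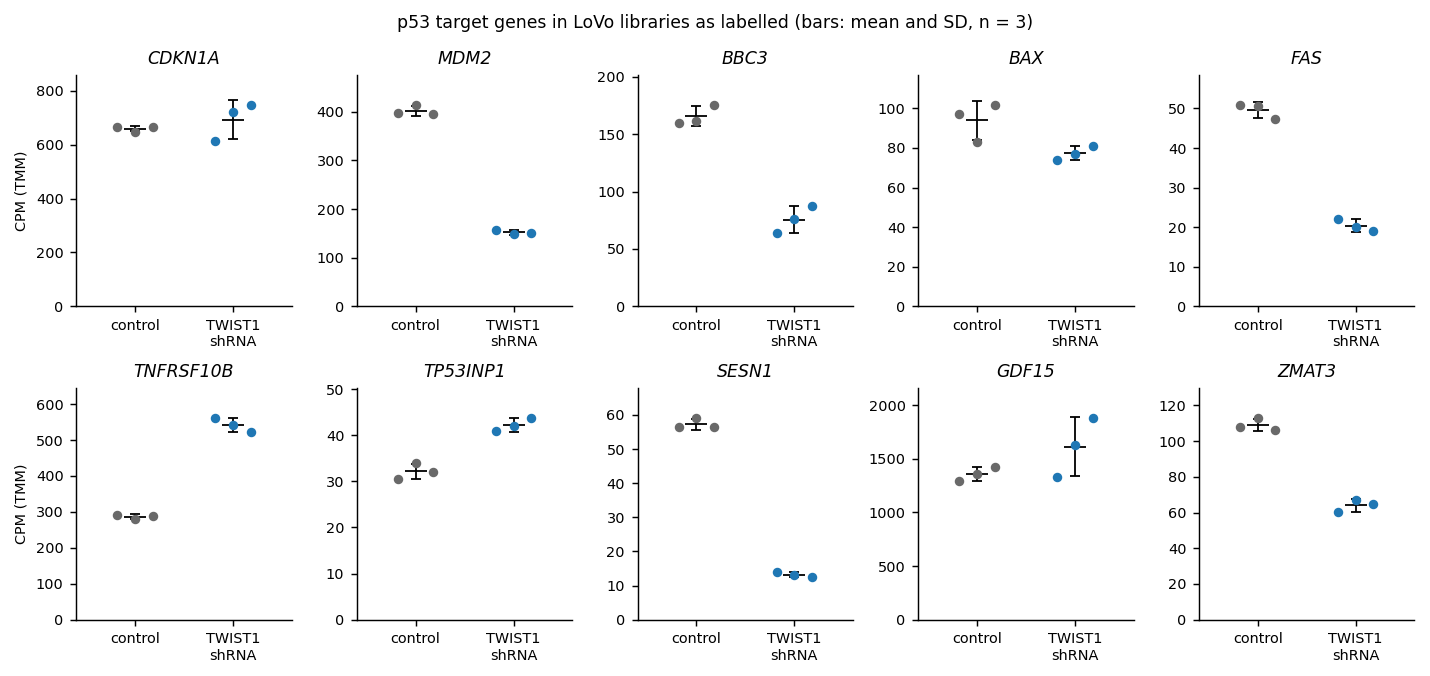
TMM-normalized CPM (vertical axes, from 0) of the 10 p53 targets in the 3 LoVo libraries labelled shRNA control (gray) and the 3 labelled TWIST1 shRNA (blue); horizontal and vertical bars give the mean and SD. MDM2, BBC3, FAS, SESN1 and ZMAT3 are lower and TNFRSF10B is higher in the libraries labelled TWIST1 shRNA without overlap, and CDKN1A and GDF15 overlap.

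MDM2 had 398, 414 and 395 CPM under the shRNA control label and 158, 148 and 150.1 CPM under the TWIST1 shRNA label (log2 fold change -1.41 ± 0.06; edgeR, adjusted p = 8.09e-13). SESN1 had 56.4, 59.1 and 56.4 compared with 13.9, 13.1 and 12.6 CPM, the largest fall of the 10 (log2 fold change -2.11 ± 0.08; edgeR, adjusted p = 3.29e-13). CDKN1A, in contrast, had 665, 648 and 665 compared with 612, 720.2 and 748 CPM, and the groups overlapped (log2 fold change 0.07 ± 0.07; edgeR, adjusted p = 0.352).

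BBC3 had 159.8, 162 and 176 CPM under the shRNA control label and 63.5, 76.4 and 87.1 CPM under the TWIST1 shRNA label (log2 fold change -1.13 ± 0.09; edgeR, adjusted p = 4.37e-09). BAX had 97.1, 82.9 and 102 compared with 74.1, 76.8 and 81.1 CPM, lower without overlap but under the fold threshold (-0.28 ± 0.08). The death receptors moved in opposite directions. FAS had 50.9, 50.6 and 47.4 compared with 22.1, 20.02 and 18.99 CPM (log2 fold change -1.28 ± 0.08; edgeR, adjusted p = 2.86e-10), and TNFRSF10B had 293, 279.9 and 289 compared with 561, 541 and 523 CPM (log2 fold change 0.92 ± 0.06; edgeR, adjusted p = 1.95e-10). TNFRSF10B was the only one of the 10 called higher.

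ZMAT3 had 108, 113 and 106 CPM under the shRNA control label and 60.1, 67.2 and 64.6 CPM under the TWIST1 shRNA label (log2 fold change -0.77 ± 0.06; edgeR, adjusted p = 8.75e-09), while it was above WT in every MDST8 clone library. The difference between the cell lines was not tested, because the tables were counted and normalized apart and the TWIST1 counts of LoVo go against its labels. TP53INP1 had 30.5, 33.9 and 31.97 compared with 40.8, 41.97 and 43.7 CPM, higher without overlap but under the fold threshold (0.39 ± 0.07). GDF15 had 1294, 1355 and 1423 compared with 1333, 1630.3 and 1880.2 CPM, and the groups overlapped (0.25 ± 0.09). Per kilobase of exon, GDF15 was the highest of the 10 in LoVo, at 650.3 CPM per kb in the libraries labelled shRNA control, whereas in MDST8 WT the highest was CDKN1A at 156 CPM per kb and GDF15 was at 26.7 CPM per kb.

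The wider pathway moved in both directions in LoVo. MDM4 and PPM1D rose, by 1.18 ± 0.07 and 0.59 ± 0.07 on the log2 scale. Of 12 regulators tested, 5 rose and 1 fell, beside 26.6% and 26.1% of all genes, with CDKN2A, which encodes p16 and the MDM2 inhibitor ARF, at 1.97 ± 0.12 and ATM at -0.63 ± 0.09. Of 38 other direct targets tested, 16 fell and 8 rose, beside the same shares, with a median of -0.30. SPATA18 and TRIM22 fell most (-4.49 ± 0.20 and -3.57 ± 0.19), from 23.5, 23.3 and 23.2 and 19.3, 16.2 and 17.98 CPM. TNFRSF10C, a decoy receptor for TRAIL, had 2, 0 and 2 reads compared with 79, 86 and 82, and TP53I3, an oxidoreductase, rose (1.62 ± 0.14).

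Of 18 tested partners of the death receptors and of the BCL2 family in LoVo, 7 fell and 4 rose, beside 26.1% and 26.6% of all genes. TNFSF10, which encodes TRAIL, had 10.1, 9.06 and 9.21 CPM compared with 1.31, 0.759 and 0.833 CPM (-3.27 ± 0.22), opposite to its receptor TNFRSF10B. BCL2 fell (-2.17 ± 0.11), and the BH3-only genes BIK and HRK rose (1.67 ± 0.11 and 0.90 ± 0.13). Of the 12 cell cycle genes, 4 were called higher and none lower, beside 26.6% and 26.1% of all genes, and the median log2 fold change was 0.51. E2F1 and CDC25C, the phosphatase that activates CDK1, were at 1.21 ± 0.07 and 1.21 ± 0.12.

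**Figure D4:**
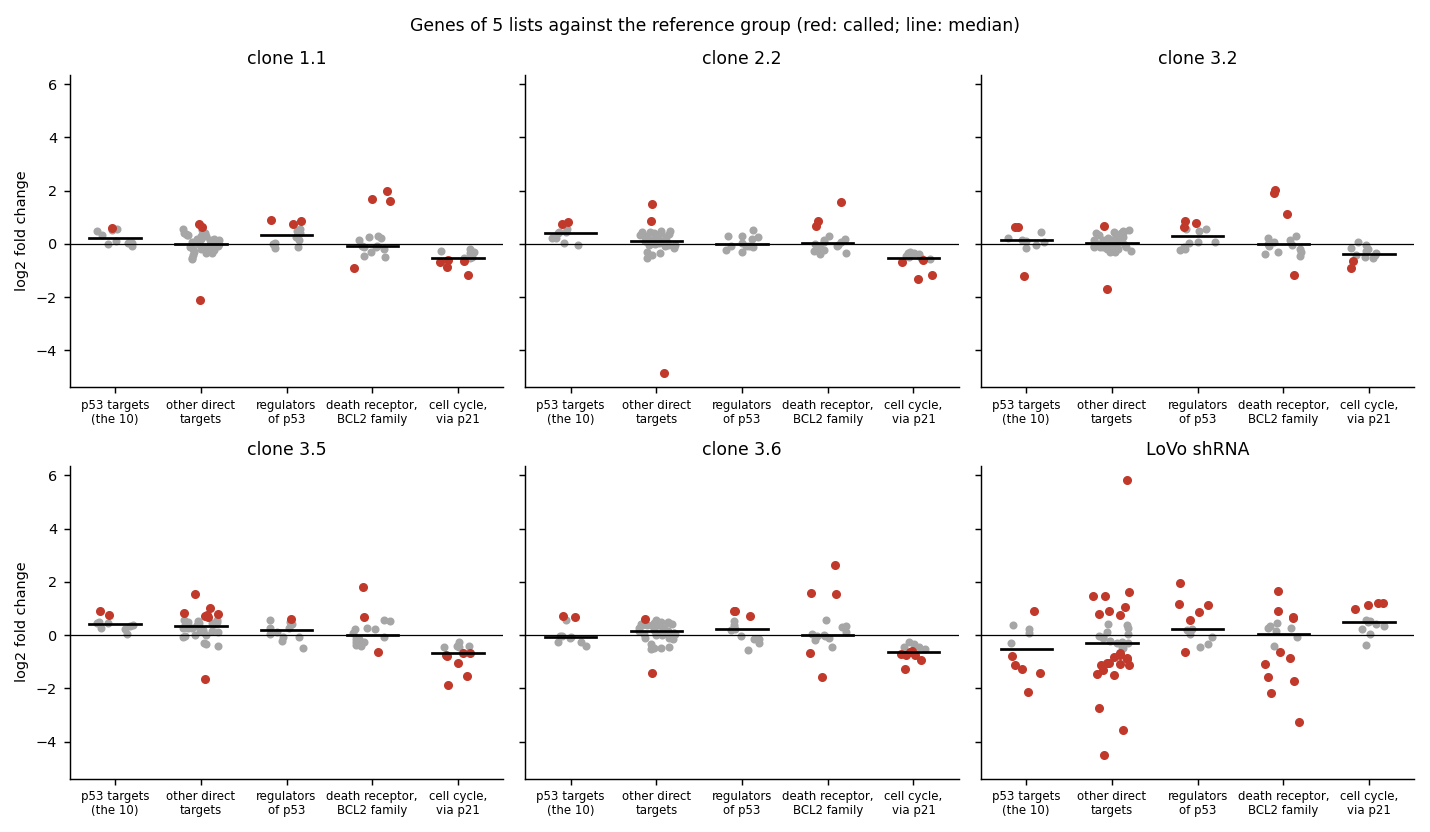
Log2 fold change (vertical axes) of each tested gene of 5 lists in the 5 KO clones against WT and in LoVo libraries labelled TWIST1 shRNA against those labelled shRNA control; red points are genes called and black lines the medians. The cell cycle genes have medians from -0.66 to -0.37 in the clones and 0.51 in LoVo.

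TWIST1 ChIP-seq peaks near the 10 genes had low fold enrichments, and most other genes tested had such a peak as well. At the threshold of the peak lists, 8 of the 10 genes in MDST8 and 7 in LoVo had a peak within 3000 bp of the 5′ end, beside 76.5% and 58.2% of the genes tested in each line. The 21 peaks had fold enrichments over input of 1.74 to 3.66 and q-values of at least 0.195, and with q at most 0.05 no peak remained at any of the 10, beside 0.642% and 0.3504% of the genes tested. The highest enrichment was at SESN1 in MDST8 (chr6:109093835-109094179, 3.66-fold, q = 0.274), within an exon of at least 1 transcript. In LoVo it was at BBC3 (chr19:47232368-47232619, 3.14-fold, q = 0.195), where the peak covered exon and intron. The 5′ end was again the outermost annotated start of a gene, and windows around other transcript starts were not searched. With 1 ChIP library per line there is no replicate, and no comparison between the lines was made.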

How the data were processed

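The authors trimmed reads with Trim Galore 0.6.6, aligned RNA-seq reads with HISAT2 2.1.0 to hg38 and counted them per gene with featureCounts 2.0.0 on GENCODE 43, and the deposited values are raw counts for 24 RNA-seq libraries. The libraries kept strand by dUTP, but the command recorded in the deposited count files sets no strand option, so reads of overlapping genes on opposite strands cannot be told apart. For TWIST1 ChIP-seq, Bowtie2 2.4.5 and MACS2 2.2.7.1 gave peak lists, which per the labels hold 1 library per line. Their deposited columns are used as fold enrichment over input and as −log10 of p and of q, while the deposited score column was not used. All peaks ended within the chromosome lengths of hg38.

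Gene symbols were taken from GENCODE 44. A gene was tested in a cell line where its geometric mean over the libraries, taken on RPM + 1 with the 1 then subtracted, was at least 1. Counts were fitted with edgeR 4.0.16 in R 4.3.3 (TMM factors, quasi-likelihood test, group means without covariates), with all 18 MDST8 libraries in 1 fit and the 6 LoVo libraries in another, and p-values were adjusted by Benjamini-Hochberg over all genes kept. CPM values use the same factors. A call needed a log2 fold change beyond 0.58 in either direction with an adjusted p below 0.05, thresholds taken from the study's methods, and an F test compared the 5 clones with each other. The fits were tested on simulated data.

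The 10 genes and the other gene lists were chosen with earlier results of these data known. The 10 genes, MDM4 and PPM1D were named in each comparison, and from each further list up to 2 called genes with the largest rise and up to 2 with the largest fall. TWIST1, the targeted gene, was named too, and markers of other cell types were described by counts and summed levels. EPCAM, CDH1, CDX2, KRT8, KRT18 and COL6A2 were named after their values were seen, as were CDKN2A in MDST8 and ACTA2 for its overlap with FAS. DESeq2 1.42.0, limma 3.58.1 on log2(count + 1) and log2(RPM + 1), RLE factors, other filters, a fit of only the groups compared, a block for the replicate letter and leaving out each library were tried as alternatives. Clone names combine the numbers of the library names, read here as guide and colony, which the labels do not state. The sample titles call TG1, TG2 and TG3 clones. Sequences were read from hg38 with Python. Some genes of the lists are not reported here and were left out of the list counts.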

Additional observations from a re-analysis of the deposited data

Results flagged for a closer look

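The difference from WT was not the same in all clones for 17 of the named genes, by the F test over the 5 clones with a distance of more than 0.58 on the log2 scale between the highest and the lowest clone mean. Among the 10 p53 targets these were MDM2 (0.73, clone 3.5 highest and clone 3.6 lowest), SESN1 (0.65, the same clones) and GDF15 (1.97, clone 2.2 highest and clone 3.2 lowest). In the list of other direct targets these were SPATA18 (5.60), TNFRSF10A (1.61), BTG2 (1.41), TRIM22 (0.61) and TIGAR (0.60). Among the partners of apoptosis these were CASP10 (2.11), BIK (1.34), BMF (1.09) and BCL2L11 (0.92), and among the cell cycle genes CCNA2 (1.1003) and MYBL2 (0.97). HIPK2 (0.99) and ATM (0.68) were the regulators of p53 that differed, and TWIST1 itself differed by 0.87. By the same rule, 32% of all genes tested differed among the clones. Those of the 17 outside the 10 targets, apart from TWIST1, were named because they were called in a comparison, the F test over the clones included. Their number is therefore partly set by that choice. Each clone is 1 line, and whether these differences go with TWIST1 was not tested. Clones 3.2, 3.5 and 3.6 share the first number of their names, which was read here as the guide, although the labels do not say so. On that reading, the differences of MDM2 and SESN1 between clones 3.5 and 3.6 lie between colonies of 1 guide. For clones 1.1 and 2.2 the guide and the clone cannot be told apart. No test for outlying libraries was run on single genes, since each group had 3 libraries.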

How the results depend on the processing

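Counts of called targets moved by more than 1.5 times for few results. For the 10 p53 targets, the count in clone 1.1 was 1 and became 0 with limma on log2(RPM + 1), and ranged from 0 to 1 when 1 library was left out. For the other direct targets, the count in clone 3.6 was 2, became 6 with limma on log2(count + 1), and ranged from 1 to 3 when 1 library was left out. That scale applies no library size normalization and moved the median of all genes by 0.13 in clone 3.6. Both LoVo counts stayed within 1.5 times under all alternatives run (6 in each for the 10 targets, 23 to 25 for the other direct targets). Of log2 fold changes of single targets, those that changed sign were not called and were close to 0. With limma on log2(count + 1) these were SESN1 in clone 3.2 (0.031), BAX in clone 3.5 (-0.037) and, in clone 3.6, CDKN1A (0.10), BBC3 (0.093), FAS (0.053) and GDF15 (0.034), and with limma on log2(RPM + 1) BAX in clone 3.5 (-0.020). Leaving out 1 library gave ranges of -0.096 to 0.021 for FAS in clone 1.1, -0.026 to 0.10 for BBC3 in clone 2.2, -0.11 to 0.047 for SESN1 in clone 3.2, -0.041 to 0.0051 for CDKN1A in clone 3.6 and -0.070 to 0.0080 for BBC3 in clone 3.6. The cause was not tested.

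The number of targets with a TWIST1 peak was 8 in MDST8 and 7 in LoVo. It was 3 in each line with p at most 0.001, 0 in each with q at most 0.05, and 3 in LoVo within 1000 bp. The number with a response element was 6 with at most 2 mismatches and 2 with at most 1 mismatch.

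Replicate letters are shared by the MDST8 groups, but libraries of the same letter did not deviate together (correlation of deviations from -0.13 to 0.11 over 45 pairs), so the letters were taken as names. With the replicate block the 10 targets had 1, 2, 3, 2 and 2 calls in clones 1.1, 2.2, 3.2, 3.5 and 3.6 and 3 among clones, the counts without it. No paired analysis was possible for LoVo because its groups share no replicate labels. With 3 libraries per group, each SD is itself imprecise.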
